A study of Rattus norvegicus with 8 samples.

Results

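The subunits of the mitochondrial respiratory chain and of ATP synthase were read in 8 arrays of the rat basolateral amygdala. The members are all genes whose symbol, on a probe set with a single symbol, begins with Ndufa, Ndufb, Ndufc, Ndufs, Ndufv, Sdh (Sdha to Sdhd), Uqcr, Cox4 to Cox8 or Atp5, without the assembly factors. This rule found 80 genes of 14217 named genes on the array: 34 of complex I, 4 of complex II, 7 of complex III, 19 of complex IV and 16 of complex V, the ATP synthase. Ndufa4 and its paralogue Ndufa4l2 were counted with complex IV, where Ndufa4 belongs by function. Each gene was read by its brightest probe set, and 8 members had more than 1. A further 12 symbols of the same families, among them Atp5mc1, Atp5mc2, Cox7a2, Ndufa10, Ndufs5 and Uqcrb, lay only on probe sets with several symbols and were not used.

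The respiratory chain sits in the inner mitochondrial membrane. Complex I takes electrons from NADH and complex II from succinate, both pass them through ubiquinone to complex III, and cytochrome c carries them on to complex IV, which reduces oxygen. Complexes I, III and IV pump protons, and complex V lets the protons flow back while it makes ATP. Neurons depend on this supply to restore ion gradients after firing. The catalytic cores of several complexes also hold subunits encoded in mitochondrial DNA, which lie outside the rule.

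The arrays compared 4 groups of rats of the amygdala stimulation model, whose strain, sex and age are not given in the sources used here. Control rats were operated on and never stimulated, whereas epileptogenic rats had status epilepticus after amygdala stimulation and showed no spontaneous seizures. All rats were habituated to the apparatus. On day 8 after stimulation they went through 2 trials with a footshock of 1.5 mA for 1 s and a tone of 75 dB for 20 s, and they were killed 3 h later. The tone ended together with the shock in paired training and followed it in unpaired training. Each combination of state (control or epileptogenic) and training had 2 arrays with the letters A and B, each a pool of amplified RNA from 2 of the 4 rats of the group. Every rat had received tone and shock, so a lasting difference after status epilepticus and a different response to training cannot be told apart. The lateral and basal nuclei were cut out together, and in such bulk tissue fewer cells of a type and less RNA per cell cannot be told apart.

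The deposited value is a linear MAS5 signal, used here as its log2. A filter at the 40th percentile of mean log2 signal (4.35, a signal of 20.3) left 73 of the 80 members among 10364 tested genes. Values of different probe sets depend on the probes, so levels are compared between arrays and not between genes. Of the listed markers, 10 of 11 neuronal, 8 of 8 astrocytic, 8 of 9 microglial, 6 of 6 oligodendrocytic and 6 of 6 endothelial ones with a probe set passed the filter. The summed signal of 9 microglial markers was 618.9 to 947.1 in control and 3208.3 to 5736.3 in epileptogenic arrays, and 7 of the 8 tested rose. The summed signal of 11 neuronal markers was 14317.3 to 20262.3 in control and 9345.4 to 15345.5 in epileptogenic arrays. Of the 10 tested, 9 lay below 0, with a median log2 difference of -0.55, and 1, Neurod6, passed as lower (3 with the replicate letter as a block). The 8 astrocytic markers had a summed signal of 13852.3 to 24244.8 in control and 20819.2 to 26198.6 in epileptogenic arrays, and 3 of them rose (Gfap, Vim and Aqp4; 4 with the block). The 6 oligodendrocytic markers had 5309.1 to 6751.9 and 6740.8 to 15249.4, with a median log2 difference of 0.59, and none passed (2 with the block). The summed signal of 3 choroid plexus markers varied widely within either state, from 168.9 to 5126.6 in control and from 327.1 to 4932.0 in epileptogenic arrays. Neither of the 2 that were tested passed, with or without the block. Of all tested genes, 4.53% passed between epileptogenic and control arrays (3.75% higher and 0.772% lower), and 17.3% with the block. The part of this shift in cell type markers in the results on the members was not tested.

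The 7 members under the filter were mostly isoforms known from other tissues. Cox6a2 and Cox8b are heart and skeletal muscle isoforms, and their mean log2 signals in control arrays were 1.44 ± 0.89 and 1.45 ± 0.65 (SD, n = 4). Cox6b2 and Cox7b2 are testis isoforms, with 3.17 ± 0.71 and 3.74 ± 0.62. Cox4i2, an isoform of lung and of low oxygen, had 2.69 ± 2.41, and Ndufa4l2, which is induced by low oxygen, had 4.15 ± 1.15. Ndufb8 is an accessory subunit of complex I that every such complex carries, and its probe set gave only 2.95 ± 1.35. Without the filter, the log2 differences between epileptogenic and control arrays in these 7 genes lay between -1.38 (Cox6b2, SE 1.06) and 0.87 (Cox4i2, SE 0.89), with adjusted p-values from 0.642 upwards. Just above the filter lay Cox7a1, another muscle isoform, at 4.42 ± 1.21 in control and 4.48 ± 0.62 in epileptogenic arrays, and the pseudogene Cox6c-ps1, at 4.33 ± 0.80 and 4.63 ± 0.62. The control mean of Cox6c-ps1 was under the filter, so this pseudogene met it only through its epileptogenic arrays. A probe set for this pseudogene may share signal with its parent gene Cox6c.

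The promoters of the members were read for the letters of 4 known regulators of respiratory chain genes. RefSeq promoters on assembly GRCr8, from 250 bases before to 50 bases after the start of the gene, were found for 72 of the 80 members and for 27457 genes in all. NRF1, a nuclear respiratory factor, was searched as GCGC and TGCGC with 1 base of any kind between them, and these letters stood, on either strand, in 18.1% of the member promoters and in 4.71% of all. ETS factors, which include GABP, are matched by CCGGAAG, which stood in 27.8% of member promoters and 9.22% of all. AAGATGGC, the letters of YY1, stood in 22.2% and 3.44%, and TCAAGGTCA, the letters of the oestrogen-related receptors, in 2.78% and 0.412%. Among the 8604 tested genes with a promoter in the table, the shares were 10.3% for NRF1, 17.5% for ETS, 5.58% for YY1 and 0.244% for the oestrogen-related receptors. Median GC content was 56.0% in the member promoters and 52.3% in all. The ETS letters end in AAG, with which the YY1 letters begin, so matches of these motifs can overlap. A match describes letters, not a bound site.

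Of these promoters 3 are shown. The first pair of genes was picked for their values in the results below, and the last holds 3 motifs at once. Capitals mark the matched letters. Cox7a2l (chr6:16936324-16936623, + strand) holds none of the 4 motifs. Ndufa6 (chr7:115750268-115750567, - strand) holds the ETS letters from base -190 and the YY1 letters from base 15, counted from the start of the gene. Atp5me (chr14:1464610-1464909, + strand) holds the YY1 letters, read on the other strand, from base -183, NRF1 letters from base -76 and ETS letters, on the other strand, from base -11.
Cox7a2l: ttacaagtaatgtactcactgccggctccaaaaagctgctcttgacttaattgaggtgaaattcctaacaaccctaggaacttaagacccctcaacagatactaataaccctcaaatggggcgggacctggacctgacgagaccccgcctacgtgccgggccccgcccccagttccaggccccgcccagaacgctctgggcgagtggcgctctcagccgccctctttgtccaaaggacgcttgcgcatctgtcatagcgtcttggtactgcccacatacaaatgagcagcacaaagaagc
Ndufa6: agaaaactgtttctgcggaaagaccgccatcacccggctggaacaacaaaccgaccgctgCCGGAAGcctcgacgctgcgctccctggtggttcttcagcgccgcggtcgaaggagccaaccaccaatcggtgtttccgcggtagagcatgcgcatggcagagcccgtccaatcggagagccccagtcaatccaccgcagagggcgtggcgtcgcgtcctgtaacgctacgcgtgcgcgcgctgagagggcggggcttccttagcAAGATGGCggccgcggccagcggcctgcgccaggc
Atp5me: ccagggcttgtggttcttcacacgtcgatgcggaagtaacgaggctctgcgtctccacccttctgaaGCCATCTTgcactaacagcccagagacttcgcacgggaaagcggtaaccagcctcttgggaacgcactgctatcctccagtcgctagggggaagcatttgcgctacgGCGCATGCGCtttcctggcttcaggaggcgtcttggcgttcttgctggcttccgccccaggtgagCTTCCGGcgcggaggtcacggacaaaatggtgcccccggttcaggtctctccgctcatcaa
The median log2 difference between epileptogenic and control arrays was -0.20 in the 14 tested members with the YY1 letters and -0.11 in the 52 without. It was -0.17 in the 13 with NRF1 letters and -0.12 in the 53 without, and -0.14 and -0.12 in the 20 with and the 46 without ETS letters.

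The comparison of 4 epileptogenic with 4 control arrays asks how the transcripts differ 8 days after status epilepticus. None of the 73 tested members passed at an adjusted p of 0.05 in limma, against 4.53% of all tested genes (469 of 10364), and 2 members had an unadjusted p under 0.05 (2.74%, beside 19.4% of all genes). By direction, 3.75% of all genes passed as higher and 0.772% as lower in epileptogenic arrays. With the replicate letter as a block 1 member passed, Cox7a2l, against 17.3% of all genes (9.4% higher and 7.88% lower). Most members lay slightly below 0: 57 of 73 had a negative log2 difference, with a median of -0.12, beside 5866 of 10364 genes (56.6%) and a median of -0.07 over all genes tested. With no filter the median over all 80 members was -0.14. The 95% interval of the difference lay within a change of 1 on the log2 scale in either direction for 58 of the 73 members (79.5%) and for 55.0% of all genes, so that larger changes lay outside the interval of most members.

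**Figure D1:**
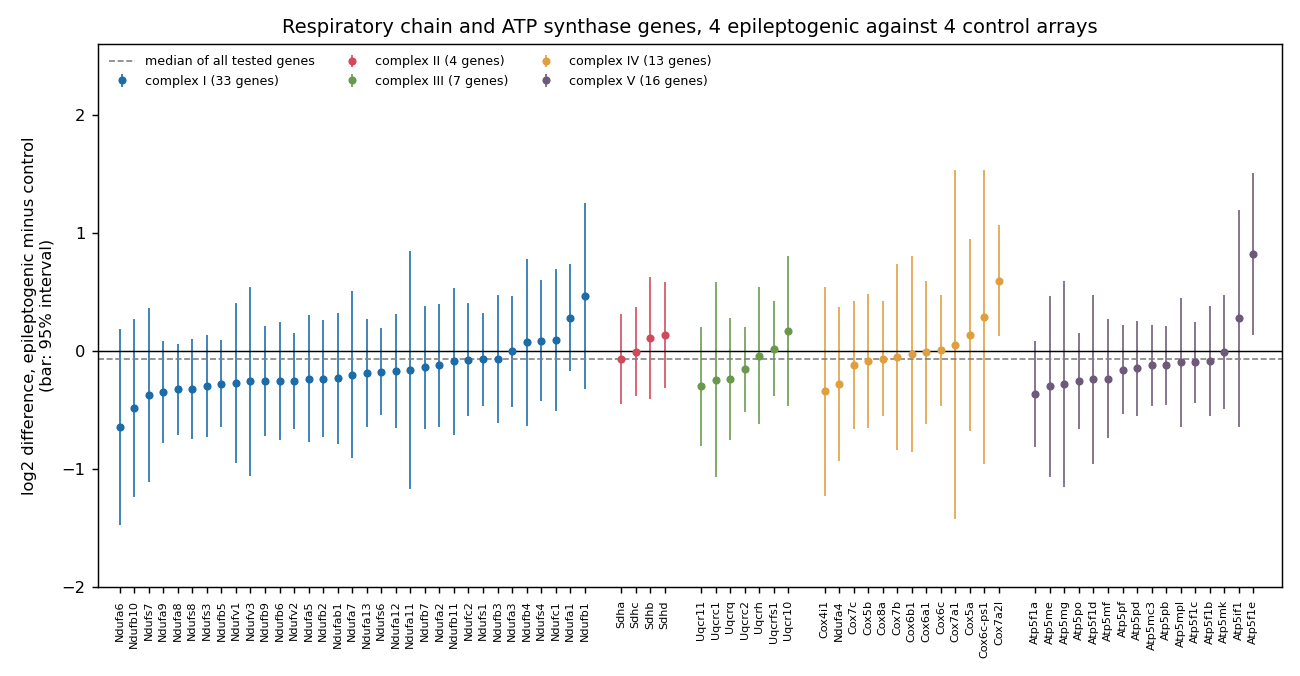
Log2 difference of each of the 73 tested members between 4 epileptogenic and 4 control arrays, grouped by complex and ordered within it; points are the fitted differences and bars their 95% intervals, and the dashed line is the median of all tested genes (-0.07). Of the points, 57 lie below 0, Atp5f1e (0.82) is the highest and Ndufa6 (-0.64) the lowest.

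Cox7a2l was the one member that passed between epileptogenic and control arrays in any of the fits with all 8 arrays. The gene belongs to the Cox7a family, and its protein, also called Scaf1, links complex III to complex IV in supercomplexes. Its log2 signal in control arrays was 9.97 (unpaired A), 10.27 (unpaired B), 9.86 (paired A) and 10.48 (paired B). In epileptogenic arrays it was 10.58, 10.94, 10.48 and 10.97 in the same order. In either letter both epileptogenic arrays were above both control arrays, while over all arrays the lowest epileptogenic and the highest control value met at 10.48. The log2 difference was 0.60 ± 0.21 (SE), a 1.51-fold higher signal, with an adjusted p of 0.167 without the block in limma and of 0.00618 with it. It was 0.62 in the A arrays alone and 0.58 in the B arrays alone. After unpaired training it was 0.64 ± 0.30 (adjusted p = 0.420, and 0.0390 with the block) and after paired training 0.56 ± 0.30 (adjusted p = 0.599, and 0.0742 with the block). No member passed without the block in the unpaired groups, against 0.415% of all genes, or in the paired groups, against 0.666%. With the block the count was 1 in the unpaired groups, against 7.62% of all genes, and 0 in the paired groups, against 5.63%.

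Atp5f1e, the epsilon subunit in the central stalk of ATP synthase, had the largest log2 difference of the members, 0.82 ± 0.30 (SE; adjusted p = 0.185, and 0.0698 with the block). Control arrays had log2 signals of 7.40 (unpaired A), 7.94 (unpaired B), 6.68 (paired A) and 7.64 (paired B), and epileptogenic arrays 8.58, 7.55, 8.46 and 8.38. The unpaired B array of the epileptogenic rats lay below 2 control arrays, and the other 3 lay above all 4. The difference was 1.47 ± 0.24 within letter A (adjusted p = 0.0207) and 0.17 ± 0.23 within letter B (adjusted p = 0.708).

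Complex I held the lowest values. Its 33 tested members had a median log2 difference of -0.20, and 28 of them were below 0. All 6 tested core subunits, the conserved catalytic part of the complex, were among these, from -0.37 (Ndufs7) to -0.07 (Ndufs1). The low values lay mainly in letter B. Relative to the mean of the control arrays, the complex I mean was 0.007 and 0.025 in the epileptogenic A arrays (unpaired, paired) and -0.37 and -0.32 in the B arrays. The control arrays had 0.050 and 0.074 in A and -0.092 and -0.032 in B. Ndufa6, an accessory subunit of the matrix arm, had log2 signals of 7.84, 7.54, 8.24 and 6.96 in control unpaired A, unpaired B, paired A and paired B arrays and of 7.06, 6.39, 7.94 and 6.64 in the epileptogenic arrays. The epileptogenic arrays were lower in each of the 4 matched pairs of training and letter, but their range overlapped that of the controls. The difference of -0.64 ± 0.37 (SE) had an adjusted p of 0.40, and of 0.0540 with the block, and with single arrays left out it ran from -0.97 (without epileptogenic paired A) to -0.32 (without epileptogenic paired B). Ndufb10, an accessory subunit of the membrane arm, had -0.48 ± 0.33 (adjusted p = 0.490), and Ndufs7, a core subunit next to the ubiquinone site, -0.37 ± 0.33 (adjusted p = 0.596). The highest values in complex I were 0.47 ± 0.35 in Ndufb1, 0.28 ± 0.20 in Ndufa1 and 0.10 ± 0.27 in Ndufc1, all accessory subunits, with adjusted p-values of 0.528, 0.501 and 0.886.

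Only Ndufa8, an accessory subunit on the intermembrane side of complex I, had arrays of both groups that did not overlap. Its log2 signals were 8.82, 9.10, 9.07 and 9.03 in control and 8.82, 8.78, 8.51 and 8.61 in epileptogenic arrays, in the same order as above. The lowest control array and the highest epileptogenic array were nearly equal, and the difference was -0.32 ± 0.17 (SE; adjusted p = 0.356). This gene was singled out after its values were seen. It makes 1 of 73 members (1.37%) without overlap, against 16.6% of all tested genes (9.26% higher and 7.32% lower).

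Complex II, the succinate dehydrogenase shared with the citric acid cycle, was near 0 in all 4 subunits. The flavoprotein Sdha had log2 signals of 9.64 to 10.04 in control and 9.66 to 9.97 in epileptogenic arrays and a difference of -0.07 ± 0.17 (SE). The iron-sulphur subunit Sdhb had 0.11 ± 0.23, and the membrane anchor Sdhd 0.14 ± 0.20. For Sdhc, the other anchor, the mean log2 signal was 9.21 ± 0.11 (SD, n = 4) in control and 9.20 ± 0.21 in epileptogenic arrays. The 95% intervals of all 4 lay within a change of 1 on the log2 scale, and the lowest adjusted p was 0.763.

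In complex III the 7 members had a median of -0.15, and 5 were below 0. The 3 lowest were Uqcr11 and Uqcrq, small subunits, at -0.30 ± 0.22 and -0.23 ± 0.23, and Uqcrc1, a core protein, at -0.24 ± 0.37. The Rieske iron-sulphur protein Uqcrfs1 had 0.02 ± 0.18, and the small subunits Uqcrh and Uqcr10 had -0.04 ± 0.26 and 0.17 ± 0.28. The lowest adjusted p among them was 0.527.

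In complex IV, cytochrome c oxidase, the 13 tested members had a median of -0.03 and 8 were below 0. Cox4i1, the common isoform of subunit 4, had -0.34 ± 0.39 (adjusted p = 0.702), and Ndufa4, a subunit first assigned to complex I, had -0.28 ± 0.29 (adjusted p = 0.665). Cox7c had -0.12 ± 0.24, and the common isoforms Cox6a1, Cox6b1 and Cox8a had -0.01 ± 0.27, -0.03 ± 0.37 and -0.07 ± 0.22. Median centring or quantile normalization put Cox6a1 and Cox6b1 above 0, as did quantile normalization for Cox8a. Cox5a, a matrix-side subunit, had 0.14 ± 0.36. Cox6c-ps1 had 0.29 ± 0.55, but it met the filter only through its epileptogenic arrays, so this value is not read as a rise.

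In complex V 14 of 16 members were below 0, with a median of -0.13. Relative to the mean of the control arrays, the complex V mean was 0.11 and 0.08 in the epileptogenic A arrays (unpaired, paired). It was -0.34 and -0.20 in the epileptogenic B arrays. Of the catalytic head, Atp5f1a (alpha subunit) averaged 8.80 ± 0.22 on the log2 scale in control and 8.44 ± 0.20 in epileptogenic arrays (SD, n = 4 each), a difference of -0.36 ± 0.20 (SE; adjusted p = 0.370). Atp5f1b (beta subunit), with 12.02 ± 0.22 and 11.94 ± 0.35, had -0.08 ± 0.21. The 4 peripheral stalk subunits lay between -0.25 (Atp5po) and -0.12 (Atp5pb). The 6 membrane subunits lay between -0.30 (Atp5me) and -0.01 (Atp5mk), with Atp5mg at -0.28 ± 0.39 and Atp5mc3, a gene of the proton-carrying ring, at -0.12 ± 0.15. A dimmer probe set of Atp5me, also above the filter, gave 0.01 ± 0.50. Atp5if1, the inhibitor that blocks ATP hydrolysis, had 0.28 ± 0.41 (adjusted p = 0.771) by its brightest probe set and -0.16 ± 0.37 by its second, while another one, under the filter, had -0.74 ± 0.56, so its probe sets disagreed in sign.

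**Figure D2:**
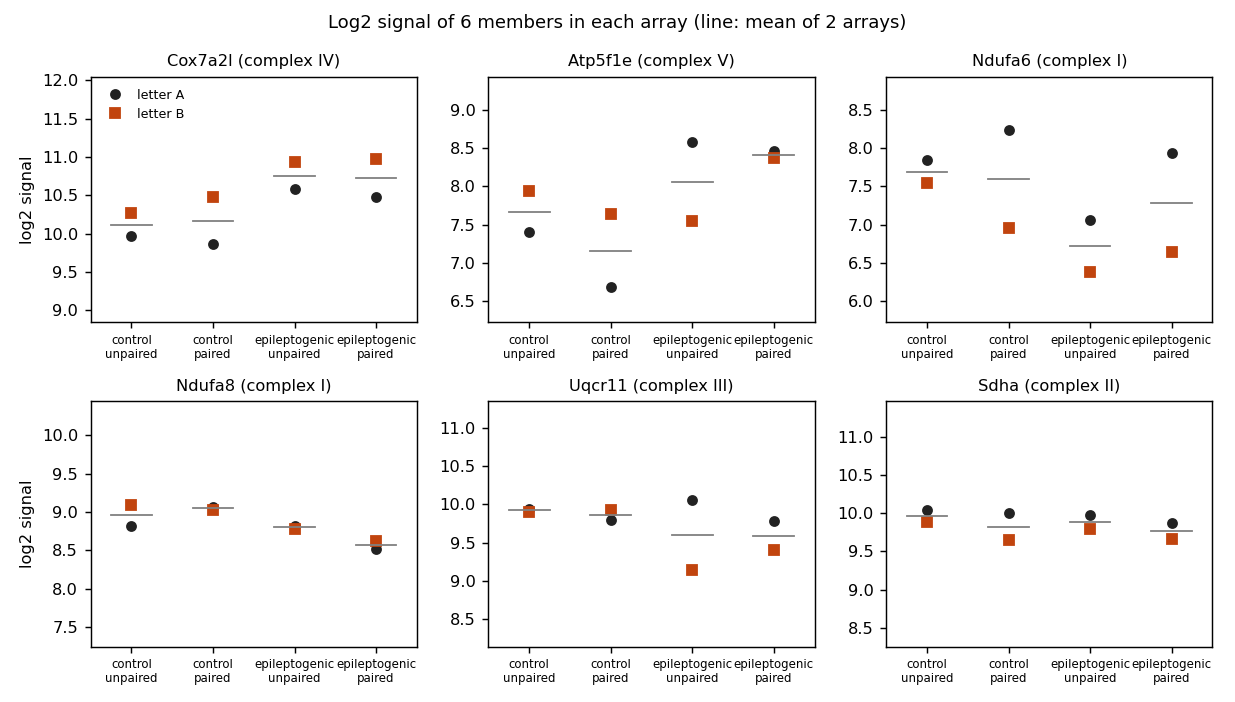
Log2 signal of 6 members in each of the 8 arrays by group; circles are letter A, squares letter B and lines the mean of both arrays, and every panel spans the same range of log2 units. Cox7a2l is higher in the epileptogenic array in all 4 matched pairs, Ndufa6 is lower in all 4, and in Uqcr11 the letter B epileptogenic arrays (9.14 and 9.41) stand below the other 6 arrays.

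The comparison of paired with unpaired training asks whether coupling of tone and shock changed the members. None of 73 members passed in limma, as for all genes (0%), and 0 members had an unadjusted p under 0.05 (1 with the block, where again none passed). The median difference was 0.02, beside -0.02 over all genes tested. The highest values were 0.44 ± 0.41 (SE) in Atp5if1, 0.44 ± 0.36 in Ndufv3 and 0.41 ± 0.33 in Ndufb10, and the lowest -0.30 ± 0.27 in Ndufc1, -0.21 ± 0.35 in Ndufb1 and -0.21 ± 0.66 in Cox7a1. All of these had an adjusted p of 0.9999 in limma. The 95% interval lay within a change of 1 on the log2 scale for 64 of 73 members, and the arrays of the training groups overlapped in all 73, beside 0.839% of genes without overlap.

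The interaction asks whether the training difference depended on status epilepticus. It passed in none of the 73 members and in 0% of all genes, with 0 members under an unadjusted p of 0.05 (2 with the block, and none passed). The extremes were Atp5f1d, the delta subunit of the central stalk, at -1.11 ± 0.64 (SE), Sdhb at -0.71 ± 0.46 and Ndufb6 at -0.66 ± 0.44, and at the other end Atp5f1e at 0.87 ± 0.61, Ndufa6 at 0.66 ± 0.74 and Cox7a1 at 0.58 ± 1.31, with an adjusted p of 0.9998 in limma for each. The 95% interval lay within a change of 1 on the log2 scale for only 13 of 73 members, so this contrast was the least precise. The median over members was -0.02 and over all genes 0.02.

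More members passed between the replicate letters than between the states or the trainings. In the fit with the letter as a block 22 of 73 members passed between letters, 18 lower and 4 higher in B, against 17.9% of all genes (8.53% lower and 9.34% higher). The 18 include Cox7a1, which met the filter only through its A arrays. The median log2 difference, B minus A, was -0.30 in the members and -0.05 over all genes. With quantile normalization as well, 20 were lower and 1, Cox7a2l, was higher, against 14.8% of all genes (7.74% lower and 7.09% higher). The labels do not say what the letters stand for. In 29 of 73 members the B array lay below the A array in all 4 groups, beside 22.2% of all tested genes, and in 8 it lay above in all 4, beside 19.4%.

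Uqcrc1 had one of the clearest differences between letters. In the A arrays its log2 signal was 9.08 and 9.38 in control (unpaired, paired) and 9.23 and 9.06 in epileptogenic rats, and in the B arrays 8.12 and 8.70, and 7.96 and 8.06, in the same order. All B arrays lay below all A arrays, with a difference of -0.98 ± 0.14 (SE; adjusted p = 0.00333). Members that were lower in B came from complex I (7, among them Ndufa6 at -0.89 and Ndufb10 at -0.77), complex III (Uqcrc1 and Uqcrh), complex IV (5, among them Cox5a at -0.91 and Cox7b at -0.86) and complex V (4, among them Atp5if1 at -1.03 and Atp5f1b at -0.47). Cox7a1 had the most negative value, -1.48 ± 0.43. Its mean over all arrays lay just above the filter, but the mean of its B arrays lay under it. Cox7a1 thus met the filter only through its A arrays, and its value is not read as a fall, though it is counted among those lower in B. Of those lower in B, Cox7a1, Cox4i1 and Ndufb1 did not pass after quantile normalization. The 4 that were higher in B were Ndufv1 (0.66), Sdhb and Cox7a2l (each 0.45) and Sdhd (0.40), and of these Cox7a2l alone passed after quantile normalization. The median over complex II was 0.26, whereas complex IV had -0.65 and complex V -0.07.

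**Figure D3:**
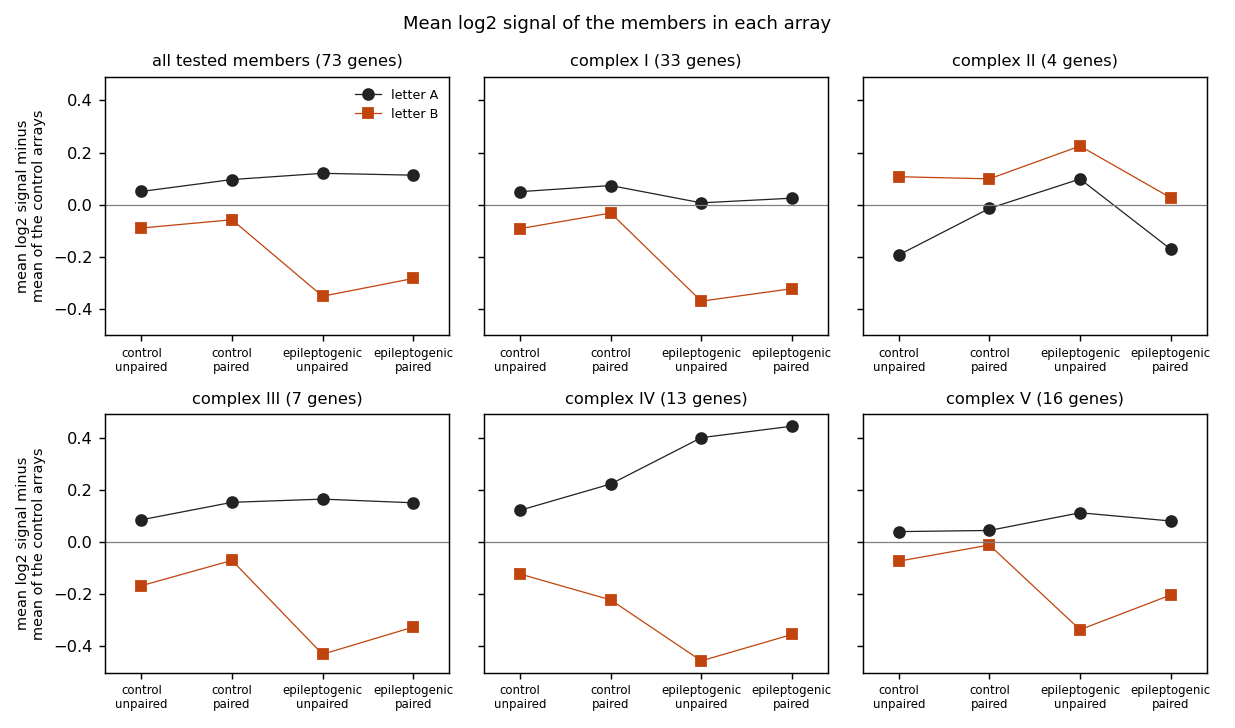
Mean log2 signal of the tested members in each array, minus the mean of the 4 control arrays, for all 73 members and for each complex; circles are letter A, squares letter B, and lines join arrays of one letter. Over all members the letter B epileptogenic arrays stand at -0.35 and -0.28 and the letter A ones at 0.12 and 0.11, and in complex IV they stand at -0.46 and -0.35 against 0.40 and 0.44.

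The epileptogenic arrays of letter B were the low ones. The mean log2 signal over the 73 members was 8.64 and 8.68 in the control A arrays (unpaired, paired), 8.50 and 8.53 in the control B arrays, 8.70 in both epileptogenic A arrays, and 8.23 and 8.30 in the epileptogenic B arrays. Within letter A the median member difference between epileptogenic and control arrays was 0.02, and within letter B it was -0.26, while over all genes it was -0.08 and -0.03. In 32 members the difference was above 0 in letter A and below 0 in letter B, in 29 it was below 0 in both, and in 7 it was above 0 in both. The median over complex IV was 0.26 in letter A and -0.39 in letter B. When the difference of the stimulation effect between letters was fitted directly, in a model added after the data were seen, none of 73 members and 0% of all genes passed; 15 members (20.6%) had an unadjusted p under 0.05, beside 5.86% of all genes, the median over members was -0.26 and over all genes 0.03.

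Calls within a letter depended on the model. With stimulation and training both fitted, 7 members passed within letter B, against 17.3% of all genes (9.95% higher and 7.32% lower): Uqcr11 (-0.64), Ndufa4 (-0.63), Atp5mf (-0.66), Ndufa6 (-0.74), Cox6b1 (-0.67) and Atp5f1d (-0.63) were lower in epileptogenic arrays, and Cox7a2l (0.58) was higher. That fit left 1 residual degree of freedom, and limma then gave every gene of like intensity the same variance. With stimulation alone, 2 against 2 arrays, 0 members passed within letter B, against 8.19% of all genes. Within letter A, Atp5f1e alone passed under both models, against 3.36% and 4.4% of all genes.

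**Figure D4:**
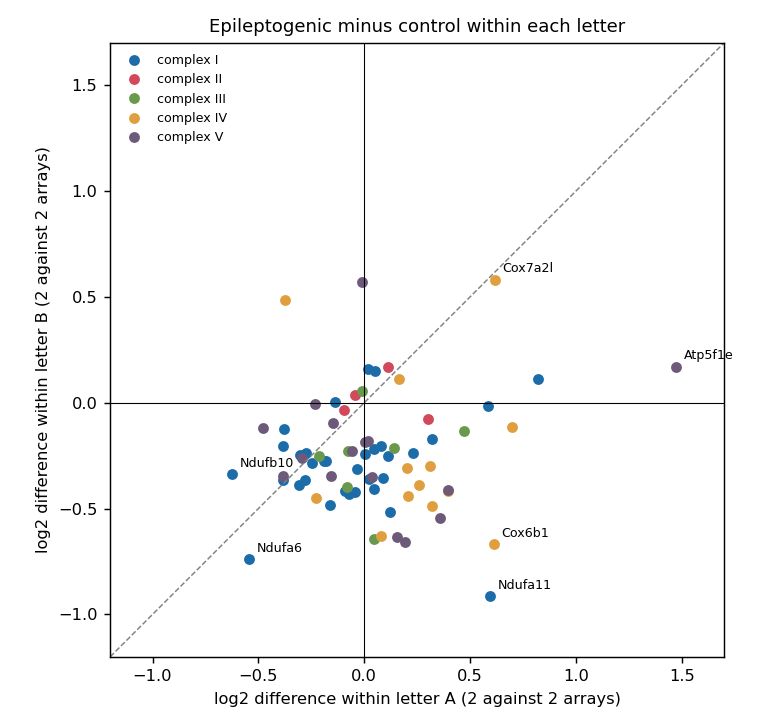
Log2 difference between epileptogenic and control arrays of each of the 73 tested members within letter A (horizontal axis) and within letter B (vertical axis), coloured by complex, with the line of equal values dashed. Of the points, 53 lie below that line and 32 lie in the lower right part; Cox7a2l is near the line above 0 and Ndufa6 below 0, while Atp5f1e, Cox6b1 and Ndufa11 are far from it.

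Between letters within each state, 12 members passed as lower in B among epileptogenic arrays, against 5.59% of all genes (2.48% lower and 3.11% higher), and 2 (Atp5if1 and Uqcrc1) among control arrays, against 2.99% (1.51% lower and 1.49% higher); none was higher in B in either. The 12 were Ndufb4, Uqcrc1, Uqcrh, Ndufa4, Cox5b, Cox6b1, Cox6c, Cox7b, Cox7c, Cox8a, Atp5f1b and Atp5f1d, 7 of them in complex IV. The ratio of 3′ to 5′ beta-actin probe signal, on the log2 scale, was 1.87 to 3.63 in the A arrays and 3.82 to 4.45 in the B arrays, so it moved with the letter, whereas the same ratio for GAPDH, 3.35 to 4.19 in A and 3.09 to 3.69 in B, overlapped. The summed signal of the 11 neuronal markers was 12751.8 to 20262.3 in A and 9345.4 to 14851.2 in B, but of the 10 tested 5 lay above and 5 below 0 between letters, 2 passing as higher and 3 as lower in B. The summed signal of the 6 oligodendrocytic markers was 6287.2 to 15249.4 in A and 5309.1 to 8845.4 in B, with a median log2 difference of -0.58, and 3 of them passed as lower in B. Of the 8 tested microglial markers 6 lay above and 2 below 0 between letters, 2 passing as higher and 1 as lower in B. The summed signal of 3 choroid plexus markers was 168.9 to 3468.6 in A and 2075.6 to 5126.6 in B. The 2 tested choroid plexus markers lay at 0.85 and 2.23, and 1 passed as higher in B. Of the 8 astrocytic markers 1 passed as lower in B, and of the 6 endothelial ones 0 passed. The part of RNA quality and of cell type content in the letter difference was not tested.

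Genes of the surrounding mitochondrial and energy pathways were read from lists, with the same test between epileptogenic and control arrays. The calls with the replicate letter as a block stand beside the 17.3% of all genes (7.88% lower and 9.4% higher) that passed in that fit. None of 39 tested assembly factors and electron carriers passed (median -0.18); with the block Coa3 (-0.50), Ndufaf5 (-0.58) and Sdhaf4 (-0.51), assembly factors of complexes IV, I and II, passed as lower and Nubpl (0.71), which delivers iron-sulphur clusters to complex I, as higher. Of 16 tested pyruvate dehydrogenase and citric acid cycle genes none passed (median -0.15), and with the block Idh2 (0.53) and Suclg2 (0.61) were higher. None of 71 mitochondrial ribosomal protein genes passed (median -0.11), with Mrps6 (0.57) alone higher under the block. In the list of biogenesis regulators none of 16 passed (median -0.03), and Gabpa, the ETS factor whose letters were searched above, was higher with the block (0.62 ± 0.21, SE; adjusted p = 0.147, and 0.0338 with the block). Of the other factors named here after their values were seen, Ppargc1a, the coactivator of mitochondrial biogenesis, had -0.18 ± 0.22, Nrf1 0.46 ± 0.23 and Yy1 0.38 ± 0.16, none of which passed with or without the block.

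Changes that passed without the block lay outside the chain itself. In that fit 4.53% of all genes passed, 3.75% as higher and 0.772% as lower. Slc25a13, the mitochondrial aspartate and glutamate carrier known from liver, rose by 1.55 ± 0.24 (SE; adjusted p = 0.0111), as 1 of 16 carrier and import genes. Gpx1, a peroxide-removing enzyme, rose by 1.16 ± 0.22 (adjusted p = 0.0254). It was 1 of 2 that passed among 13 uncoupling and antioxidant genes; the other, Ucp2, an uncoupling protein of the inner membrane that macrophages carry, met the filter only through its epileptogenic arrays. Its mean log2 signal was 3.53 in control and 5.67 in epileptogenic arrays, given as levels with no test. Nnt, which makes NADPH at the inner membrane, was higher with the block (0.82 ± 0.21; adjusted p = 0.0736, and 0.00772 with the block). Microglial markers rose in the same arrays, as given above, and their part in the values of Slc25a13, Ucp2 and Gpx1 was not tested. None of 17 tested glycolytic genes passed (median -0.26). With the block the enzymes Ldha (-0.52), Tpi1 (-0.48), Pgam1 (-0.42) and Pfkp (-0.41) and the neuronal glucose transporter Slc2a3 (-0.50) were lower, and the lactate transporters Slc16a1 (1.00) and Slc16a7 (1.01) were higher, each against the 17.3% of genes that passed in that fit.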

How the data were processed

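Gene expression was measured on 8 Affymetrix Rat Genome 230 2.0 arrays. The deposited values are linear signal intensities that the authors made with MAS5, per the submitters' processing notes; its version and scaling target are not given in the sources used here. Amplified RNA (30 ng of total RNA per rat, 2 rounds) was pooled from 2 rats per array, per the labels. The number of arrays limits the precision, and p-values measure the spread between these pools. Per array, the median signal was 29.0 to 43.2.

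The log2 of the signal was fitted with 4 group means in limma 3.58.1 (R 4.3.3), with an intensity trend. Its moderated test was two-sided, and p-values were adjusted by the Benjamini-Hochberg method across the 18625 probe sets above the filter; control probe sets were left out. Probe sets were named by the platform annotation, and each gene was read by its brightest probe set. Arrays of like letter deviated from their group means together (correlations of 0.321 to 0.407 in all 6 pairs of groups), so the letter was taken to pair the samples and its block value is printed where it changes a call. On simulated arrays the comparison of epileptogenic with control arrays, over 18625 probe sets, recovered 22.0% of changes of 1 and 65.0% of changes of 2 on the log2 scale. The simulated noise was independent between arrays, with no letter effect, and the changes were placed at random over these probe sets. The rates therefore describe all tested probe sets under that noise and not the members. Named members are those that passed, the 3 highest and 3 lowest of each complex, the 3 brightest, listed isoforms, and the 3 extremes of the training contrasts. The members and all gene lists were chosen with earlier results of these data known. Members named in the comparisons of letters, and those that end a quoted range, were chosen after their values were seen. Tables and plots were made in Python 3.11.15 (matplotlib 3.10.9).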

Additional observations from a re-analysis of the deposited data

How the results depend on the processing

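Under 23 alternatives, 8 of which left out 1 array each, the number of members that passed between epileptogenic and control arrays stayed at 0 except in the following. With the replicate letter as a block it was 1 (Cox7a2l), as it was with quantile normalization or no filter added to the block; it was 1 (Atp5f1e) within letter A under both models, and within letter B 7 with training fitted and 0 without. After unpaired training the count rose from 0 to 1 with the block and with quantile normalization and the block. The other 5 comparisons had 0 throughout. With single arrays left out, 161 to 302 of all tested genes passed instead of 469, the fewest without the epileptogenic unpaired B array. With no intensity trend 247 passed, and with the block 1791, 0 and 1 of them members. The median member difference between epileptogenic and control arrays ran from -0.25 to -0.01 with single arrays left out, and that of the interaction from -0.27 to 0.19; it was -0.27 without the epileptogenic unpaired B array. Among the 37 tested members named by the rule above, without those named only after their values were seen, 24 crossed 0 in some alternative. None of these passed a test where it did, their differences in the 8 arrays together were at most 0.34 in size, and the cause was not tested. Within letter A the log2 difference became 0.017 in Atp5f1b, 0.15 in Atp5f1d, -0.0090 in Atp5if1, 0.40 in Atp5mk, 0.39 in Cox6a1, 0.61 in Cox6b1, -0.38 in Cox7a1, 0.21 in Cox7c, 0.26 in Cox8a, 0.077 in Ndufa4, 0.048 in Uqcr11, -0.013 in Uqcrfs1 and 0.14 in Uqcrh. Within letter B it became -0.11 in Cox6c-ps1, -0.017 in Ndufa1, -0.077 in Sdhb, 0.035 in Sdhc and -0.13 in Uqcr10. With median centring it was 0.025 in Atp5mk, 0.022 in Cox6a1, 0.0051 in Cox6b1 and 0.028 in Sdhc, and with quantile normalization, alone or with the replicate block, 0.039 in Atp5mk, 0.044 in Cox6a1, 0.042 in Cox6b1, 0.0092 in Cox8a and 0.052 in Sdhc. The mean of all probe sets gave -0.21 in Atp5if1, and an offset of 16 before the logarithm -0.037 in Cox7a1. Single arrays also moved values that kept their sign by over 1.5 times, from -0.74 (without control unpaired B) to -0.22 (without control unpaired A) in Ndufb10, from -0.67 (without epileptogenic paired A) to -0.077 (without epileptogenic paired B) in Ndufs7 and from -0.57 (without control unpaired B) to -0.023 (without control unpaired A) in Atp5me. With single arrays left out, the ranges that crossed 0 were -0.24 to 0.079 in Atp5f1b, -0.52 to 0.040 in Atp5f1d, -0.16 to 0.72 in Atp5if1, -0.22 to 0.21 in Atp5mk, -0.74 to 0.063 in Cox4i1, -0.20 to 0.47 in Cox5a, -0.32 to 0.30 in Cox6a1, -0.45 to 0.40 in Cox6b1, -0.11 to 0.69 in Cox6c-ps1, -0.60 to 0.71 in Cox7a1, -0.32 to 0.082 in Cox7c, -0.27 to 0.14 in Cox8a, -0.56 to 0.0045 in Ndufa4, -0.082 to 0.28 in Ndufc1, -0.57 to 0.064 in Ndufv3, -0.16 to 0.022 in Sdha, -0.072 to 0.30 in Sdhb, -0.059 to 0.050 in Sdhc, -0.11 to 0.45 in Uqcr10, -0.56 to 0.077 in Uqcrc1, -0.042 to 0.084 in Uqcrfs1 and -0.24 to 0.17 in Uqcrh.

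The design limits small effects: 4 arrays against 4, each a pool of 2 rats, in the lateral and basal nuclei together. Detection calls were not used, so dim probe sets have no background level. MAS5 signals of dim genes spread widely between arrays. The within-letter fits leave 1 or 2 residual degrees of freedom. The pathway lists were chosen with earlier results in view.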
